A study of Mus musculus with 61 samples.

Results

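The fractions described here are the coronal slices of the mouse brain that hold the striatum and the septum. They are fractions 9 and 10 of the series named C and fractions 10 and 11 of the series named Co, called C9, C10, Co10 and Co11 below. They were chosen by their place in the brain as 4 of the 61 arrays, with earlier results of these data known. They were set against the 25 other coronal arrays.

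In the study, whole brains were cut into consecutive slabs in 3 planes, and the RNA of each slab was hybridised to an Agilent whole mouse genome array. A slab, or fraction, was 200 sections of 5 µm, which is 1 mm of brain, and both coronal series were numbered from caudal to rostral. The brains came from 6 mice, and each series came from 1 mouse. Mouse C gave 13 fractions, and mouse Co, which was cut at a slightly oblique angle, gave 16. Both mice were untreated C57BL/6J males of 8 weeks, housed free of pathogens, so no treatment separates the members from the other fractions. Each mouse gave 2 member arrays. Neighbouring fractions of 1 brain are not separate animals, so the number of animals behind each value is 2.

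The striatum is the input station of the basal ganglia. Most of its neurons are GABA-releasing spiny projection neurons, which receive glutamate from the cortex and thalamus and dopamine from the midbrain. Neurons of the direct pathway carry the dopamine D1 receptor and release substance P and dynorphin, and those of the indirect pathway carry the D2 receptor, an adenosine receptor and enkephalin. In both, dopamine acts through cyclic AMP and the phosphatase inhibitor DARPP-32. A slab of this kind also holds the septum, the cortex around it, the preoptic area, the basal forebrain with its cholinergic neurons, and part of the lateral ventricle with its choroid plexus. A lower level in such a mixed slab can be fewer cells of a type or less RNA per cell, and these cannot be told apart.

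Levels are log2 spot intensities relative to the 75th percentile of the same array, so a level of 0 is that percentile, and a difference of 1 is a doubling. They serve to compare arrays for 1 probe, not genes with each other. Differences are given ± SE from limma with the mouse as a block, and adjusted p-values are limma p-values after Benjamini-Hochberg adjustment over all probes tested, with a gene called when its adjusted p was under 0.05. The 75th percentile of the coronal arrays lay between 921 and 1919 intensity units, against 1196 to 1798 for the members. Between 61.6% and 73.1% of probes were well above background on the coronal arrays, and 66.2% to 73.1% on the members. C9 and C10 shared a slide with C11 and C12, and Co10 and Co11 shared a slide with Co9 and Co12, so each slide held members and 2 neighbours.

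The first comparison was of the 4 member arrays with the 25 other coronal arrays. Genes of striatal projection neurons were higher in the members, 16 of 35 tested with a median difference of 1.93, together with the forebrain factors Lhx8, Nkx2-1 and Six3 and the hormone gene Oxt. With the slide in the model the striatal list kept 3 calls of 35 as a random block and 0 as a fixed block, where its median was 0.98. Of 15508 genes tested, 106 were called, which is 0.684%. Of these, 98 were higher in the members (0.632% of the genes tested) and 8 were lower (0.0516%). The median difference of the 98 genes was 1.49, with a range from 0.31 to 5.71, while the median over all genes was -0.02. By means, all 98 were higher in both mice taken alone, and higher than the 2 other arrays of the same slide in both slides. Single members could lie below a slide mate, as Co10 lay below Co12 for Rarb. The 98 were chosen on these same arrays, so their shared sign was not a separate test. The count of called genes was 30 of 15508 with the slide as a random block and 7 with it as a fixed block. In mouse C, 47 of them peaked on C9 and 50 on C10. In mouse Co, 90 peaked on Co11 and 7 on Co10. For 41 of them all 4 members lay above all 25 other arrays; over all genes, 57 did so (0.367%). The error of this comparison includes the differences among 25 places of the brain, from olfactory bulb to hindbrain, and is therefore larger than the spread between mice. When the spread between the 2 mice at 13 matched positions was the error, 6469 of 15469 genes were called (41.8%), 3128 of them higher (20.2%) and 3341 lower (21.6%). The study had matched those positions by correlation on these same arrays. Without C9, C10, Co10 or Co11 the count of called genes was 41, 46, 57 or 37, and without Co12, the next rostral fraction of mouse Co, it was 160.

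**Figure D1:**
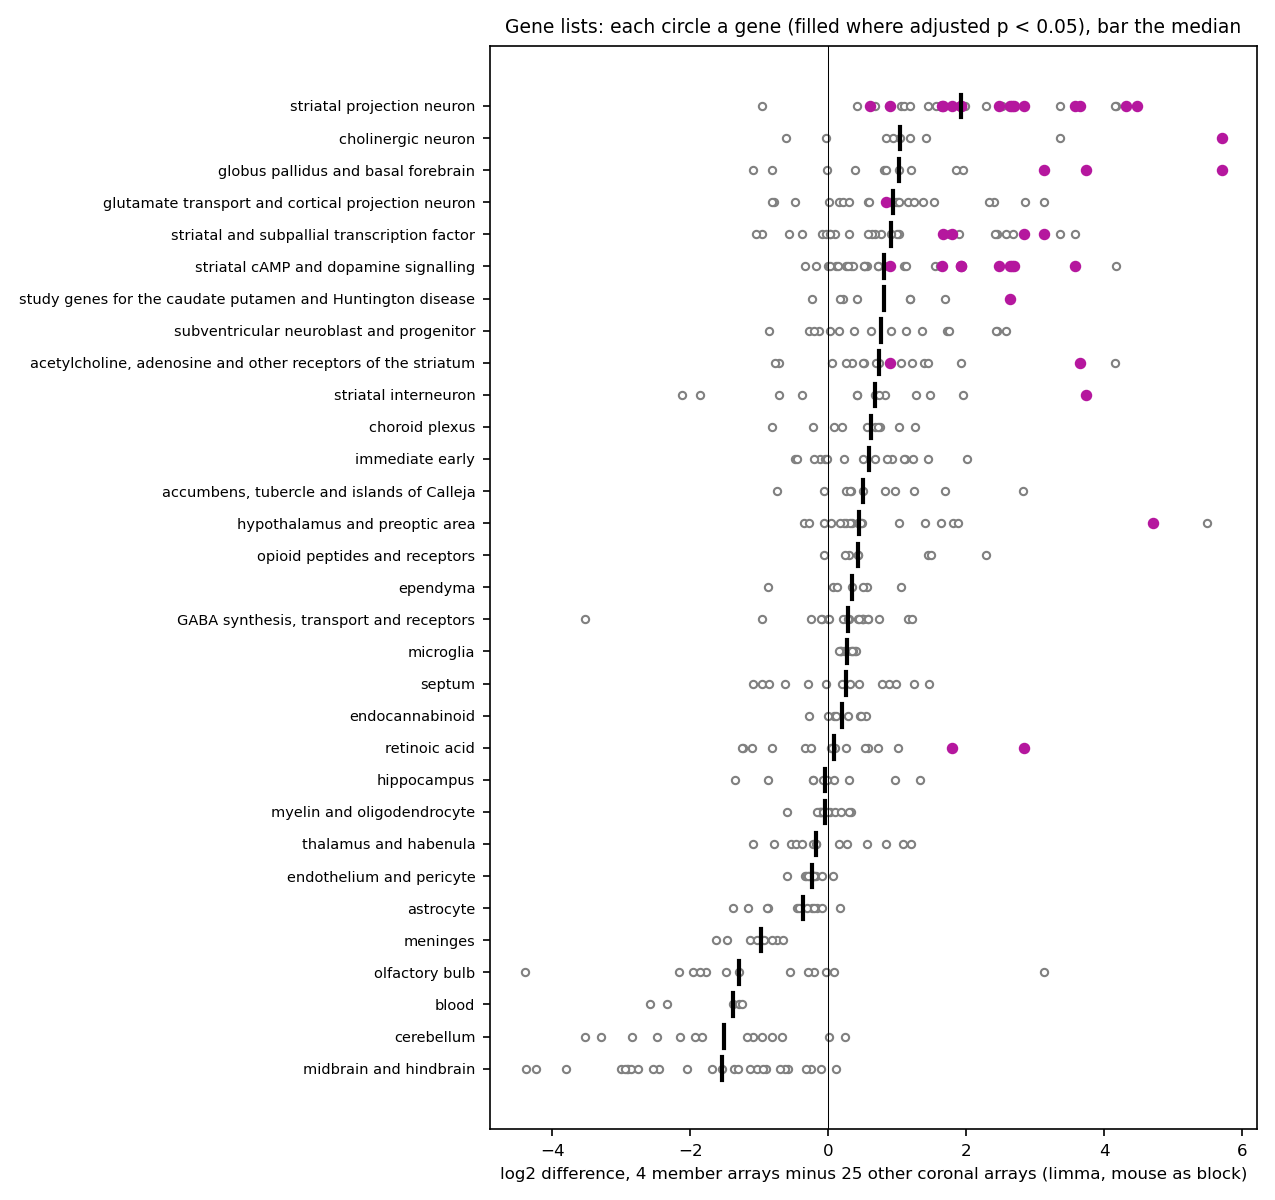
The log2 difference, members minus the 25 other coronal arrays (horizontal axis), for each gene of 31 gene lists (vertical axis, ordered by their medians). Each circle is 1 gene, filled where the limma adjusted p was under 0.05, and the bar is the median; the striatal projection neuron list has the most filled circles, 16 of 35, and a median of 1.93.

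The list of striatal projection neuron genes had 40 members, of which 35 were named on the array and passed the filter on dim probes. In this comparison 16 of the 35 were called higher and none lower, beside 0.632% of all genes called higher. The list was drawn up with earlier results of these data known, so the counts and shares here are a description only. The median difference of the 35 was 1.93, and 34 of them had a positive difference. For 11 of the 35 the members did not overlap the other arrays, beside 0.367% of all genes. The summed linear level of the list ran from 289 to 396 times the 75th percentile on the members, and from 62.4 to 303 with a median of 108 on the others. Co12 was the highest of the other arrays for 22 of the 35 genes. In the fit with 13 matched positions, 32 of the 35 were called higher and 1 lower, beside 20.2% and 21.6% of all genes.

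**Figure D2:**
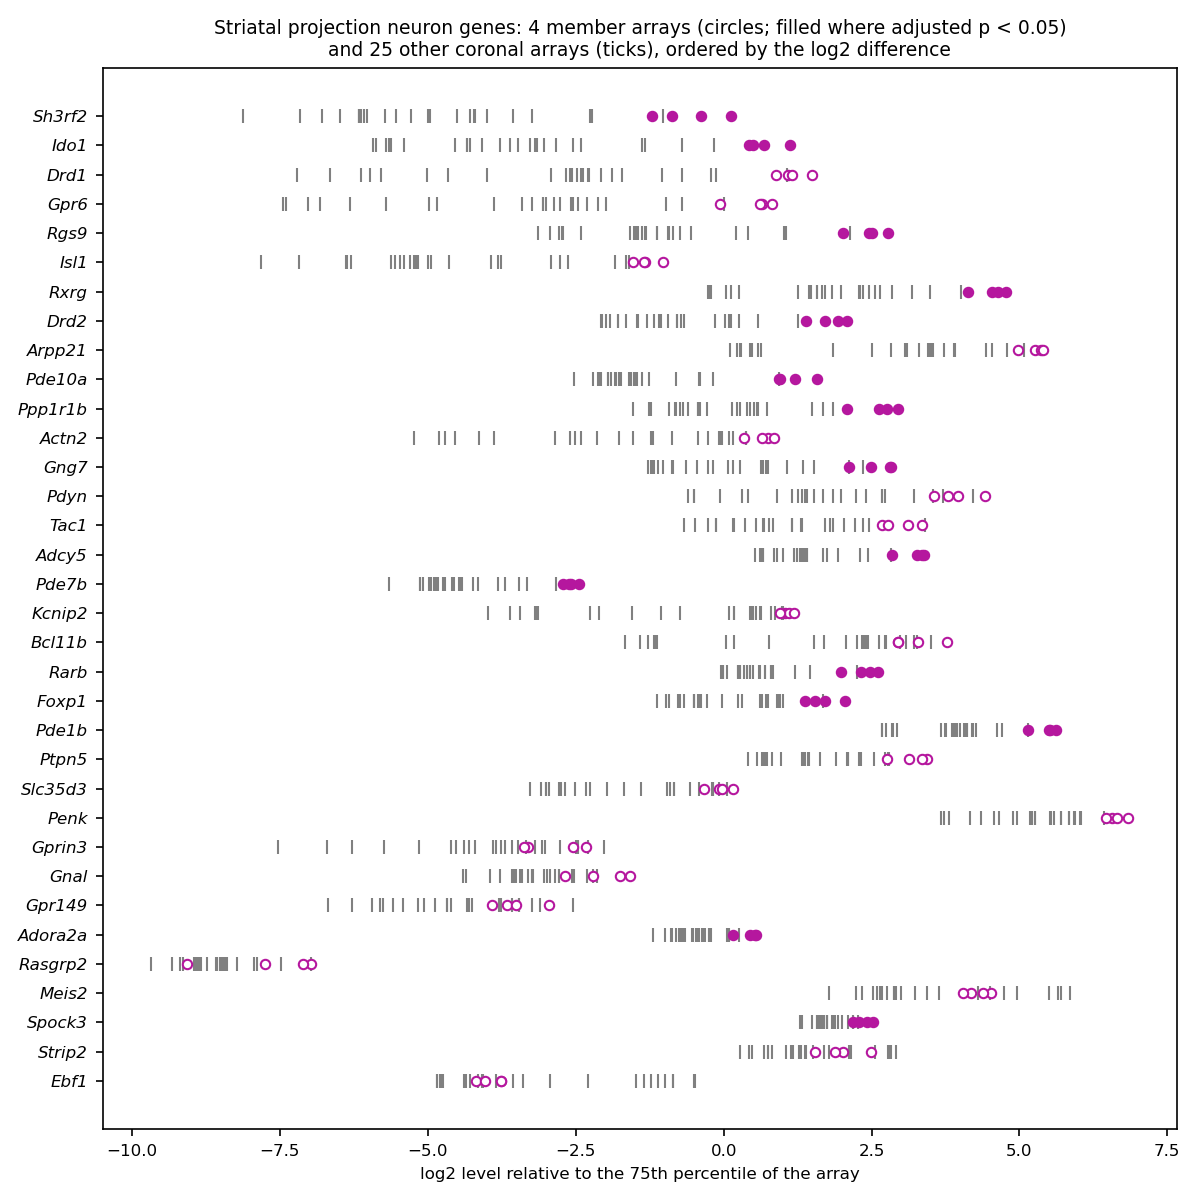
Levels of 34 of the 35 striatal projection neuron genes (log2 relative to the 75th percentile of the array, horizontal axis) on the 4 member arrays (circles, filled where the limma adjusted p was under 0.05) and the 25 other coronal arrays (ticks). The genes are ordered by their difference, from Sh3rf2 with 4.48 at the top, and for 10 of the 34 the circles lie to the right of every tick.

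Dopamine and adenosine receptors came first among the cell surface genes of the list. Drd2, the D2 receptor of the indirect pathway, stood at 1.94, 1.72, 1.40 and 2.08 on C9, C10, Co10 and Co11, and between -2.08 and 1.26 with a median of -1.07 on the 25 others. The members and the others did not overlap, and the closest other arrays were Co12 and C8, the neighbours on either side. The difference was 2.69 ± 0.46 (adjusted p = 0.00245). Adora2a, the adenosine receptor of the same neurons, gave 0.53, 0.55, 0.16 and 0.45 against -1.19 to 0.25 with a median of -0.47, and only Co10 lay within the range of the others. It was higher by 0.89 ± 0.15 (adjusted p = 0.00176).

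Drd1, the D1 receptor of the direct pathway, did not pass the threshold. Its levels were 1.09, 1.15, 0.88 and 1.5 on the members and -7.21 to 1.06 with a median of -2.47 on the others. The 2 arrays of mouse C and Co11 were above all others and Co10 was below Co12. The difference of 4.17 ± 1.08 was larger than that of Drd2, and so was its error (adjusted p = 0.0869). In the fit with matched positions, which called 20.2% of all genes higher, the adjusted p was 6.26e-08. Gpr6, an orphan receptor of indirect pathway neurons, likewise gave 4.16 ± 1.06 (adjusted p = 0.0765, and 1.69e-08 with matched positions).

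The transmitter peptides had high levels on all 4 members, and none of 3 passed the threshold here, while all 3 did with matched positions, a fit that called 20.2% of all genes higher. Penk, the precursor of enkephalin, stood at 6.56, 6.65, 6.46 and 6.84 against 3.67 to 6.43 with a median of 5.27. No other array reached the members, although Co12 came close to Co10. The difference was 1.44 ± 0.39 (adjusted p = 0.113, and 8.75e-07 with matched positions). Tac1, the precursor of substance P, gave 2.67, 3.11, 2.77 and 3.35 against -0.67 to 3.40 with a median of 0.84, so Co12 was above every member. Its difference was 1.98 ± 0.52 (adjusted p = 0.0917, and 2.47e-07 with matched positions). Pdyn, the precursor of dynorphin, was at 3.80, 4.41, 3.55 and 3.96 against -0.60 to 4.22, a difference of 2.29 ± 0.67 (adjusted p = 0.152, and 1.9e-08 with matched positions). None of the 8 genes of the wider list of opioid peptides and receptors was called, and their median was 0.43.

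**Figure D3:**
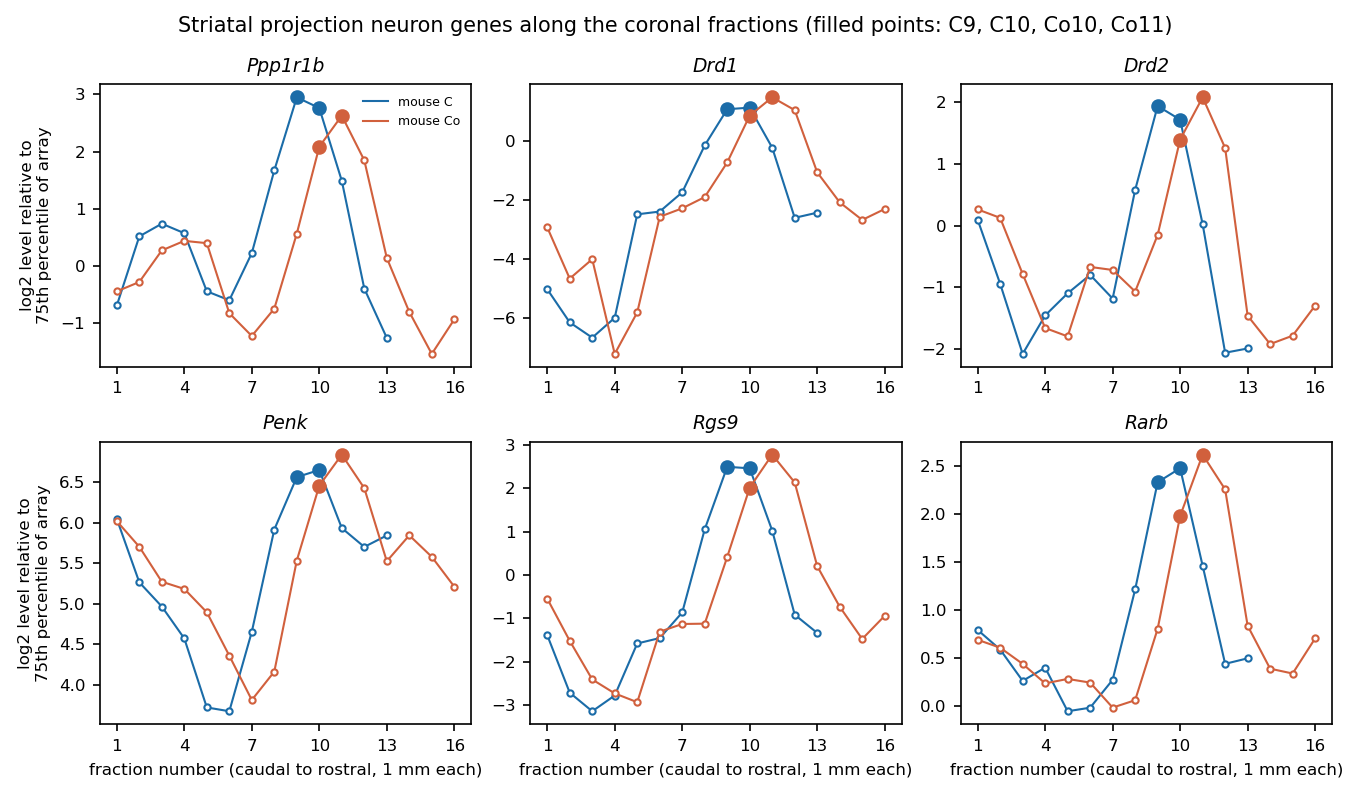
Levels of Ppp1r1b, Drd1, Drd2, Penk, Rgs9 and Rarb (log2 relative to the 75th percentile of the array, vertical axis) along the coronal fractions of mouse C and mouse Co (horizontal axis, caudal to rostral), with the 4 members as filled points. All 6 genes peak on a member in both mice, at C9 or C10 and at Co11.

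Genes that carry the signal of dopamine inside the cell were called in several places of the pathway. A second list, of cyclic AMP and dopamine signalling, shares many of its genes with the first. Of its 33 genes tested 9 were called higher, with a list median of 0.80, beside 0.632% of all genes called higher. That count was 2 with the slide as a random block and 0 with the slide fixed, where the median was 0.41. Ppp1r1b, which encodes DARPP-32, stood at 2.95, 2.76, 2.09 and 2.63 on the members and at -1.54 to 1.85 with a median of -0.28 on the others. The groups did not overlap, and the plot of levels along the brain shows a smaller second rise at C2 to C4 and Co3 to Co5. It was higher by 2.63 ± 0.45 (adjusted p = 0.00245), or 6.20-fold. Against the 2 other arrays of each slide it was higher by 2.31 in mouse C and by 1.15 in mouse Co.

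Adcy5, the main adenylyl cyclase of the striatum, read 3.35, 3.38, 2.84 and 3.26 against 0.53 to 2.83 with a median of 1.25. Each member was above every other array, Co10 by a narrow margin over Co12, and the difference was 1.93 ± 0.31 (adjusted p = 0.00141). Gng7 encodes the G protein gamma subunit that couples these receptors to the cyclase. It gave 2.49, 2.83, 2.13 and 2.80 against -1.27 to 2.35, so Co10 lay below Co12, and was higher by 2.48 ± 0.55 (adjusted p = 0.0286). Gnal encodes the stimulatory alpha subunit of the same G protein. It was at -1.76, -1.59, -2.67 and -2.22 against -4.40 to -2.15, so the members of mouse Co lay among the others, and its difference of 1.10 ± 0.29 was not called (adjusted p = 0.0889). A second probe of Gnal gave 0.91 (adjusted p = 0.0116).

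Phosphodiesterases end the cyclic nucleotide signal, and 3 of them were called. Pde10a stood at 0.94, 0.96, 1.20 and 1.58 against -2.54 to 0.93 with a median of -1.59, a difference of 2.66 ± 0.37 (adjusted p = 0.000332). Pde1b, activated by calcium and calmodulin, stood at 5.52, 5.51, 5.14 and 5.63 against 2.68 to 5.14 with a median of 3.95, a difference of 1.65 ± 0.33 (adjusted p = 0.0151). Pde7b was at -2.62, -2.57, -2.71 and -2.45 against -5.65 to -2.84, a difference of 1.93 ± 0.31 (adjusted p = 0.00126). In these 3 called genes the members lay above all other arrays. Pde1c, Pde2a and Pde4b of the same signalling list were not called. Their further probes gave -0.41 and -0.46 for Pde1c, 1.51 for Pde2a, and -0.18 and 0.34 for Pde4b, with no call. Rgs9, which shortens the signal of G protein coupled receptors, read 2.50, 2.46, 2.02 and 2.78 against -3.15 to 2.14 with a median of -1.31. Only Co10 fell within the range of the others, below Co12, and the difference was 3.58 ± 0.67 (adjusted p = 0.00627). Ptpn5, a tyrosine phosphatase rich in the striatum, missed the threshold with 1.62 ± 0.39 (adjusted p = 0.0504). With matched positions, where 20.2% of all genes were called higher, its adjusted p was 3.24e-08.

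Transcription factors of these neurons included a pair of nuclear receptors for retinoids. Rarb, the retinoic acid receptor beta, was at 2.33, 2.47, 1.98 and 2.62 against -0.05 to 2.25 with a median of 0.44, and was higher by 1.80 ± 0.26 (adjusted p = 0.000502). Rxrg, the retinoid X receptor gamma that pairs with it, was at 4.64, 4.54, 4.13 and 4.77 against -0.27 to 4.02 with a median of 1.71, and was higher by 2.83 ± 0.60 (adjusted p = 0.0204). Rxrg did not overlap the others, whereas Co10 was below Co12 in Rarb. These 2 were the only calls among the 16 genes tested of the retinoic acid list, whose median was 0.08. Foxp1, a forkhead factor of projection neurons, gave 1.55, 1.37, 1.72 and 2.05 against -1.12 to 1.68, a difference of 1.67 ± 0.38 (adjusted p = 0.0382). Isl1, a LIM homeodomain factor of direct pathway and cholinergic neurons, gave -1.53, -1.33, -1.34 and -1.02 against -7.83 to -1.60 with a median of -5.17. It did not overlap the others, yet its difference of 3.36 ± 0.85 was not called (adjusted p = 0.0706). Of the 29 genes tested of the list of striatal and subpallial transcription factors, 4 were called higher, with a list median of 0.90. Over all genes the share called higher was 0.632%.

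Other calls in the list had less familiar roles in these neurons. Ido1, an enzyme that breaks down tryptophan, stood at 0.68, 0.49, 0.43 and 1.11 against -5.93 to -0.16 with a median of -3.61, so no other array overlapped the members. It was higher by 4.32 ± 0.81 (adjusted p = 0.00734). Sh3rf2, an SH3 domain protein, stood at -0.87, -1.21, -0.38 and 0.12 against -8.13 to -1.02 with a median of -5.28. Its difference of 4.48 ± 0.81 was the largest of the list (adjusted p = 0.00493), and C10 lay below Co12. Spock3, an extracellular proteoglycan, changed little in size, by 0.61 ± 0.14 (adjusted p = 0.0318). Ebf1 alone of the 35 had a negative difference.

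The promoters of 3 called genes are shown to let a reader see what lies before the start sites of genes that were high together: a dopamine receptor, a signalling regulator and a nuclear receptor. The sequences are RefSeq windows of 300 bases on GRCm38.p6, from 250 bases before to 50 after the start, written 5′ to 3′ on the strand of the gene. Drd2 is at chr9:49340153-49340452 on the plus strand, Rgs9 at chr11:109298132-109298431 on the minus strand and Rarb at chr14:16575427-16575726 on the minus strand. Motifs were sought on both strands: the TATA box TATAAA, the box CCAAT, the full cyclic AMP response element TGACGTCA, and 3 hexamers of retinoid receptor sites, which are AGGTCA and its variants GGTTCA and also AGTTCA. Capitals mark the matches, and no 2 matches overlap in these windows.
Drd2: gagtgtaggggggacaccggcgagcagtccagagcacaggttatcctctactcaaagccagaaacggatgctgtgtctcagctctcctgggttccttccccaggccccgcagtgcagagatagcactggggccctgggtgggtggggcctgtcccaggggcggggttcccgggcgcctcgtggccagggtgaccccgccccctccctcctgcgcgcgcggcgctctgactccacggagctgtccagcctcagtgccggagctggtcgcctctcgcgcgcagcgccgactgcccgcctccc
Rgs9: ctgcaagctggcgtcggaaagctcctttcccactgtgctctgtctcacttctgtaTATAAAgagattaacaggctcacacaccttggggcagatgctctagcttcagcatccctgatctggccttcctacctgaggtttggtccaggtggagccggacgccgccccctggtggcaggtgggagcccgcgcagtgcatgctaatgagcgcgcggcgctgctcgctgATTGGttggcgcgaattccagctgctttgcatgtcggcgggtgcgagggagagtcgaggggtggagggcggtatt
Rarb: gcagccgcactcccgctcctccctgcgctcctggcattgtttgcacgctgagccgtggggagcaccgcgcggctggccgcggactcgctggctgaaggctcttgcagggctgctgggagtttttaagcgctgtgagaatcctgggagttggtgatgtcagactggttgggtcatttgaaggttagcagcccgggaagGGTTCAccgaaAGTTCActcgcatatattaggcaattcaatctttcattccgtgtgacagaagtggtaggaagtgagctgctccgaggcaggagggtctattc

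The Drd2 window held no match to these motifs and had a GC content of 70.3%, against a median of 52.7% over all 32851 windows. Rgs9 (GC 60.3%) held TATAAA from base 56 of the window and CCAAT on the other strand from base 226. Rarb (GC 57.7%) held GGTTCA from base 198 and AGTTCA from base 209, on the same strand with 5 bases between them. Such repeats of a hexamer are the form of sites that retinoic acid receptors are known to bind, and a match here is a description of letters only. Over all windows, 13.62% held TATAAA, 37.41% CCAAT, 16.26% AGGTCA, 10.39% GGTTCA, 13.99% AGTTCA and 1.79% TGACGTCA. The table held 19 windows for 11 of the 16 called genes. Of these 19 windows, 2 held TATAAA, 5 CCAAT, 1 AGGTCA, 2 GGTTCA, 3 AGTTCA and 0 TGACGTCA.

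Genes of other structures in the slab were also high. Lhx8, a LIM homeodomain factor of cholinergic and other basal forebrain neurons, had the largest difference of all called genes. It stood at -1.28, -1.19, -2.36 and -1.74 on the members and at -9.70 to -2.61 with a median of -8.54 on the others. No array overlapped, but only 7 of the 25 others were well above background; the difference was 5.71 ± 1.05 (adjusted p = 0.00608). Nkx2-1, a homeodomain factor of the ventral forebrain, stood at -3.93, -3.91, -4.05 and -3.73 against -9.66 to -3.93, with 7 of the 25 others well above background. Its members overlapped the caudal neighbours C8 and Co9, and the difference was 3.73 ± 0.88 (adjusted p = 0.0461). Six3, a homeodomain factor of the rostral forebrain, was higher by 3.13 ± 0.75 (adjusted p = 0.0494), with 11 of the 25 others well above background. These 3 were the calls among 13 genes of the globus pallidus and basal forebrain list, whose median was 1.03, beside 0.632% of all genes called higher.

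Chat, the enzyme that makes acetylcholine, was at -4.54, -4.52, -4.91 and -4.70 against -7.59 to -4.41 with a median of -5.61. Single arrays far from the members, such as Co1, reached the same level, and the difference of 1.18 ± 0.45 was not called (adjusted p = 0.237). With matched positions, where 20.2% of all genes were called higher, the adjusted p of Chat was 7.95e-05. Lhx8 was the only call among 9 genes of the cholinergic list, with a median of 1.04. Of the 13 genes tested of the striatal interneuron list only Nkx2-1 was called, and of the 11 genes of accumbens and olfactory tubercle none.

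A pair of hypothalamic hormones was high on the caudal member of each mouse. Oxt, the oxytocin precursor, stood at 2.56, -0.33, 4.17 and 1.81 on C9, C10, Co10 and Co11, and at -4.40 to 2.34 with a median of -3.46 on the others. C9 and Co10 were the highest arrays of their mice, and the next were C8 and Co9 on their caudal side. The difference was 4.71 ± 0.94 (adjusted p = 0.0136). Avp, the vasopressin precursor, followed with 2.96, -0.80, 4.17 and 0.96 against -7.91 to 3.31, and C8 was above C9. Its difference of 5.50 ± 1.46 was not called (adjusted p = 0.0987). With matched positions, where 20.2% of all genes were called higher, the adjusted p of Avp was 2.65e-07. Oxt was the only call among 20 genes of the hypothalamus and preoptic list, which had a median of 0.44.

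The septum stood out less than the striatum in these slabs. None of 14 genes tested of the septum list was called, and their median was 0.26. Their summed level ran from 13.7 to 16.2 on the members, close to the median of 13.4 of the others, which ranged from 6.70 to 51.2. Trpc4, a cation channel of lateral septum neurons, was at 0.30, 0.43, 0.23 and 0.29 against -2.32 to 0.93 with a median of 0.04. Its members lay inside the range of the others, and the difference of 0.88 ± 0.62 (adjusted p = 0.461) turned to -0.0031 with the slide as a fixed block and to -0.0507 against the neighbouring arrays alone. Zic1, a zinc finger factor of the septum that is also strong in the cerebellum, was at 2.26, 1.76, 2.62 and 1.86 against 0.97 to 5.50 with a median of 2.52. It had 6 values left out as flagged spots, and its difference of -1.09 ± 0.77 (adjusted p = 0.471) became 0.57 and 0.20 in those settings. All 106 called genes kept their sign in both. With matched positions Trpc4 gave 0.89 (adjusted p = 5.11e-06) and Zic1 -1.05 (adjusted p = 0.000108). That fit called 20.2% of all genes higher and 21.6% lower.

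Several called genes have no established place in striatal neurons, and many were dim elsewhere. Fbxw13, an F-box protein, stood at -5.66, -4.64, -5.18 and -4.68 on the members, all well above background, and was not well above background on any of the 25 others. It was at least 3.09-fold higher (adjusted p = 4.15e-07). Clspn, the checkpoint protein claspin, stood at -5.14, -5.16, -5.16 and -4.31 against -9.19 to -6.25, with 1 of 25 others well above background, and was higher by 3.17 ± 0.34 (adjusted p = 5.4e-06). Ifi27l2b, a relative of interferon-induced proteins, was higher by 3.97 ± 0.59 (adjusted p = 0.00054), with 3 of 25 others well above background. In each of these 3 genes the members and the others did not overlap.

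Of the brighter genes in this group, Ptpn7, a tyrosine phosphatase known from lymphocytes, stood at -1.84, -2.04, -2.26 and -1.53 against -6.69 to -2.54 with a median of -5.46. It was higher by 3.45 ± 0.49 (adjusted p = 0.000413) and did not overlap. Serpina9, a serine protease inhibitor, stood at 0.71, 0.96, 0.23 and 1.19 against -4.35 to 0.87 with a median of -2.74. It was higher by 3.36 ± 0.59 (adjusted p = 0.00297), and Co12 lay above C9 and Co10. Gpx6, a glutathione peroxidase, was higher by 4.04 ± 0.70 (adjusted p = 0.00258), and Gm136, a gene with no assigned function, by 3.26 ± 0.69 (adjusted p = 0.0198). Tle4, a transcriptional corepressor also used as a marker of deep cortical layers, was higher by 0.84 ± 0.19 (adjusted p = 0.0392) and was the only call among 22 genes of glutamate transport and cortical neurons.

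Only 8 genes were lower in the members. Rab37, a small GTPase of secretory vesicles, stood at -2.91, -3.30, -2.05 and -3.26 against -3.33 to 1.06 with a median of -0.05, a difference of -2.56 ± 0.54 (adjusted p = 0.0187). Gsdma, of the gasdermin family of pore-forming proteins, differed by -1.57 ± 0.37 (adjusted p = 0.0433), and Fhdc1, a formin, by -1.10 ± 0.25 (adjusted p = 0.0318). Cidea, a protein of lipid droplets, differed by -0.99 ± 0.23 (adjusted p = 0.0434). Only for Cops3, a subunit of the COP9 signalosome, did all 4 members lie below the others. Its levels were 1.36, 1.36, 1.73 and 1.60 against 1.76 to 2.34 with a median of 2.19, a difference of -0.61 ± 0.09 (adjusted p = 0.00059). The other 3 were Fbxl7, Tnfrsf10b and Chst8, with differences of -0.94, -0.68 and -0.65, and a second probe of Tnfrsf10b, well above background on 2 members and 20 others, gave -0.42 (adjusted p = 0.241). The remaining probe of that gene gave 0.11 but was well above background on no coronal array, and a second probe of Gsdma gave -1.31 (adjusted p = 0.213). By means, all 8 were lower in both mice and against the other arrays of both slides. They were chosen on these same arrays.

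**Figure D4:**
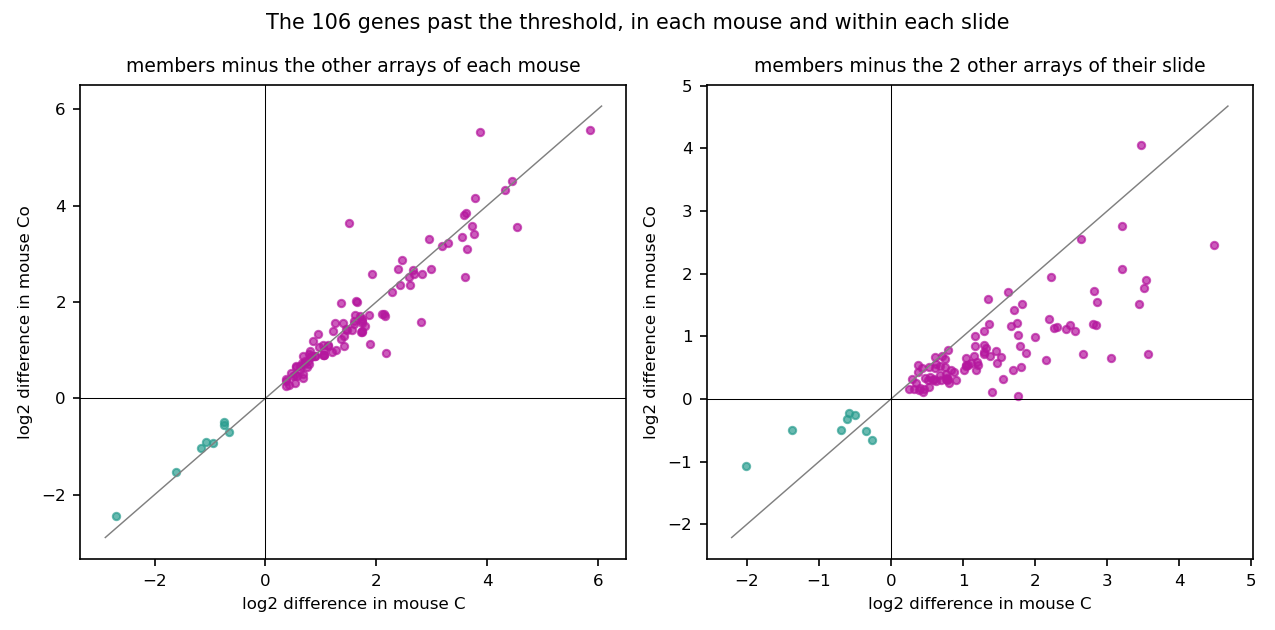
Log2 differences of the 106 called genes in mouse C (horizontal axis) and mouse Co (vertical axis), for the members minus the other arrays of each mouse (left) and minus the 2 other arrays of their slide (right). Magenta points are the 98 higher genes and green points the 8 lower ones, and the grey line marks equal values. The differences are of means, and all points have the same sign in both mice in both panels. The genes were chosen on these same arrays.

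In the mouse that was not used to choose genes, nearly all had the same direction. The study paired these fractions of the 2 mice by correlation on these same arrays. The shared direction is therefore a description and not a separate test. The 100 genes with the largest positive difference in mouse C had a median of 2.60 there and of 2.29 in mouse Co, where 96 of the 100 were higher, against 49.8% of 13086 genes compared. The 100 chosen in mouse Co had a median of 2.42 there and of 2.45 in mouse C, where again 96 were higher, against 45.7% of 12980 genes. Of the 100 most negative genes, 100 were lower in the other mouse in either direction, against 50.1% and 54.3% of all genes compared. Their medians in the mouse that did not choose them were -1.71 and -1.58. Position, slide and mouse are tied together here in part, since the members of a mouse shared a slide.

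Most lists of other regions and cell types held no called gene. No gene was called in the lists for midbrain and hindbrain (27 tested, median -1.53), cerebellum (14, median -1.51), olfactory bulb (13, median -1.29), thalamus and habenula (15, median -0.18) or hippocampus (10). The midbrain and hindbrain list summed to between 0.72 and 0.99 on the members, near the lowest other array at 0.70 and far from the highest at 29.4. None was called for myelin (14, median -0.05), astrocytes (12, median -0.37), microglia (11, median 0.27), endothelium and pericytes (12, median -0.24), meninges (10, median -0.98) or blood (5, median -1.39). Nor was any called for choroid plexus (10, median 0.62), neuroblasts (16, median 0.76), ependyma (7), GABA synthesis and receptors (22, median 0.29), endocannabinoids (8) or immediate early genes (16, median 0.59). The receptor list had 2 calls of 17, Adora2a among them, beside 0.632% of all genes called higher. The part of these cell types in the values of the striatal genes was not tested.

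The genes that the study used to examine the caudate putamen and Huntington disease were area markers known from other sources and genes of the disease. Only Ppp1r1b of the 8 tested was called. Htt, the huntingtin gene, was at 0.86, 0.84, 0.80 and 0.99 against 0.09 to 0.99 with a median of 0.75, and differed by 0.22 ± 0.13 (adjusted p = 0.392). Bdnf, the growth factor that the cortex supplies to the striatum, was at 0.25, 0.47, 0.51 and 0.53 against -0.94 to 1.13, and its difference of 0.42 ± 0.35 (adjusted p = 0.53) became -0.0382 with the slide as a fixed block and -0.21 against the neighbouring arrays alone. Gprin3, a G protein interacting protein, differed by 1.18 ± 0.66 (adjusted p = 0.36). With matched positions Gprin3 gave 1.05 (adjusted p = 0.009), Bdnf 0.38 (adjusted p = 0.00155) and Htt 0.18 (adjusted p = 0.0723). That fit called 20.2% of all genes higher. Levels of all 3 on the members lay within the range of the others, except that Htt on Co11 was just above it.

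The closest comparison was with the next fractions on either side. On the rostral side these were C11, C12, Co12 and Co13, toward the olfactory bulb. Of 15508 genes tested, 319 were called (2.06%), with 270 higher in the members (1.74%) and 49 lower (0.316%). No gene was called when the slide was a fixed block (1460 at an unadjusted p under 0.05) or when only 1 neighbour of each mouse was used (2266 at an unadjusted p under 0.05). With arrays scaled to their medians the split was 187 higher and 95 lower, and with the table normalized by the authors 185 and 103, while the median over all genes was -0.07. The count fell to 64 without C9, 69 without Co10, 182 without Co11, 128 without C11 and 90 without Co13, and rose to 498 without C12 and 844 without Co12.

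Myelin genes were higher in the members than in the rostral fractions, 9 of 14 with a median of 0.69, beside 1.74% of all genes called higher. Mag, an adhesion protein of myelin, was at 5.23, 4.92, 5.33 and 5.12 on the members and at 4.24, 4.26, 4.67 and 4.31 on C11, C12, Co12 and Co13. Each member was above each rostral array, and the difference was 0.78 ± 0.10 (adjusted p = 0.00908). Mal, a proteolipid of myelin, was at 3.75, 3.45, 3.5 and 3.16 against 2.67, 2.53, 2.67 and 2.13, and was higher by 0.97 ± 0.13 (adjusted p = 0.0122). Without C9 or Co10, 3 or 4 of the 14 were called, and none when the slide was a fixed block, where the median was 0.61.

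Of the 14 genes of the septum list, 3 were called higher than in the rostral fractions, beside 1.74% of all genes. They were the receptors Avpr1a and Crhr2 and the ligand Dlk1. Against the caudal neighbours 0 of the 14 were called, with a median of 0.03. Without C9 or Co10, 1 of the 14 was called, and with the slide fixed 0. Avpr1a, the V1a vasopressin receptor, was at -3.04, -3.31, -3.23 and -3.36 on the members and at -4.42, -4.70, -4.28 and -5.10 on the rostral arrays, a difference of 1.39 ± 0.17 (adjusted p = 0.00903). Crhr2, the type 2 receptor for corticotropin-releasing hormone, was at -0.41, -0.99, 0.02 and -0.67 against -1.82, -2.20, -1.30 and -1.81, a difference of 1.27 ± 0.21 (adjusted p = 0.0241). Dlk1, a transmembrane ligand of the Notch family, was at -1.62, -2.40, -0.93 and -1.40 against -4.07, -3.38, -3.10 and -4.17, a difference of 2.09 ± 0.30 (adjusted p = 0.0138). In all 3 the members lay above every rostral array.

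The largest rises over the rostral fractions were of genes outside the striatal lists. Zfp474, a zinc finger protein, stood at -4.31, -5.36, -3.53 and -4.72 on the members and was not well above background on any rostral array, so it was at least 4.48-fold higher (adjusted p = 0.00203). Hoatz, a gene of cilia and flagella, was at least 5.59-fold higher (adjusted p = 0.00545), also from below background. Calcr, the calcitonin receptor, was at -1.16, -2.20, -1.16 and -1.70 against -4.52, -5.62, -4.49 and -6.31, a difference of 3.68 ± 0.55 (adjusted p = 0.0164). Its caudal neighbours were at the level of the members (0.62, adjusted p = 0.746). Crygn, a crystallin, rose by 3.71 ± 0.31 (adjusted p = 0.00259) and Fam166c by 3.56 ± 0.38 (adjusted p = 0.00545). Second probes were not called for Fam166c (0.43, adjusted p = 0.302, well above background on all 4 members and 25 others) or for Calcr (2.12, adjusted p = 0.149). Clspn and Fbxw13 were also called here, Clspn with 2.89 ± 0.53 (adjusted p = 0.034) and Fbxw13 at least 3.04-fold higher (adjusted p = 0.00209). In the striatal list Spock3 rose, by 0.81 ± 0.15 (adjusted p = 0.032), with Ebf1 as the other call, while Drd2 gave 2.34 (adjusted p = 0.129) and Ppp1r1b 1.83 (adjusted p = 0.153).

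The lower side was led by genes of the olfactory bulb, of which 4 of 13 were called lower with a median of -2.19, beside 0.316% of all genes. S100a5, a calcium-binding protein of olfactory neurons, was not well above background on the members and stood at -1.78, 5.14, -3.18 and 2.57 on C11, C12, Co12 and Co13, at least 189-fold higher there (adjusted p = 0.0319). Tbx21, a T-box factor of mitral and tufted cells, was at -5.48, -5.09, -5.40 and -5.54 against -0.71, 2.48, -2.62 and 0.62, a difference of -5.32 ± 0.81 (adjusted p = 0.0171). Doc2g, a relative of synaptic calcium sensors, was at -1.69, -1.61, -1.83 and -1.81 against 1.59, 5.29, 0.01 and 3.29, a difference of -4.28 ± 0.87 (adjusted p = 0.0474). In each, the second rostral fraction of a mouse was far above the first. Fam110c was at least 2.49-fold higher in the rostral fractions (adjusted p = 0.0156), though a second probe was not called (-1.71, adjusted p = 0.308), and Ndst4 and Tmem40 differed by -1.87 ± 0.38 (adjusted p = 0.049) and -1.57 ± 0.26 (adjusted p = 0.0213).

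On the caudal side the neighbours were C7, C8, Co8 and Co9, toward the thalamus and hippocampus. Of 15506 genes tested, 106 were called (0.684%), with 40 higher in the members (0.258%) and 66 lower (0.426%). With the slide fixed 25 were called, 1 higher and 24 lower, and with 1 neighbour of each mouse 0 (2187 at an unadjusted p under 0.05). The count was 11, 10 and 10 without C9, C10 and Co11, and 4, 30 and 12 without C7, Co8 and Co9. Thalamic genes were lower in 4 of 15 cases, with a median of -1.34, and hippocampal genes in 3 of 10, with a median of -1.12.

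Prkcd, a protein kinase C of thalamic relay neurons, was at 0.97, 0.77, 0.97 and 0.22 on the members and at 3.60, 3.11, 2.76 and 3.65 on C7, C8, Co8 and Co9. Every member was below every caudal array, by -2.54 ± 0.23 (adjusted p = 0.00615). C1ql2, a synaptic protein of dentate granule cells, was at -2.46, -2.99, -2.18 and -2.92 against -0.16, -0.63, 0.18 and -0.56, a difference of -2.34 ± 0.24 (adjusted p = 0.00963). Prox1, a homeobox factor of the same cells, differed by -1.14 ± 0.20 (adjusted p = 0.0472), and Tdo2, a tryptophan-degrading enzyme also found there, by -1.83 ± 0.16 (adjusted p = 0.00492; a second probe gave -1.51 with adjusted p = 0.309). Gpr151, a receptor of the habenula, differed by -2.26 ± 0.28 (adjusted p = 0.0179), Tnnt1, a troponin that also marks thalamus, by -2.21 ± 0.24 (adjusted p = 0.0121), and Rora, a nuclear receptor, by -0.86 ± 0.11 (adjusted p = 0.0194).

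Cga, the common alpha subunit of the pituitary glycoprotein hormones, was at -5.60, -5.57, -8.36 and -8.19 on the members and at -2.03, -1.79, -4.58 and -1.23 on the caudal arrays, a difference of -4.52 ± 0.65 (adjusted p = 0.0268). The members of mouse C were higher than those of mouse Co in this gene. Wnt9b, a secreted Wnt ligand, differed by -3.32 ± 0.37 (adjusted p = 0.0121) and Irx2, an Iroquois homeobox factor, by -3.17 ± 0.49 (adjusted p = 0.0318).

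The rises over the caudal side included 1 gene of the striatal list, Actn2, an actinin of dendritic spines. It was at 0.76, 0.65, 0.35 and 0.86 on the members and at -1.23, -0.44, -1.19 and -0.86 on the caudal arrays, and was higher by 1.58 ± 0.19 (adjusted p = 0.015). Fbxw13 was at least 3.60-fold higher (adjusted p = 0.00183). Ccr6, a chemokine receptor known from immune cells, was at -3.18, -3.77, -3.68 and -2.77 against -6.21, -5.58, -6.33 and -5.72, and was higher by 2.61 ± 0.31 (adjusted p = 0.0142). Cd72, a receptor known from B cells, was higher by 2.19 ± 0.33 (adjusted p = 0.0316), Phex, an endopeptidase known from bone, by 2.38 ± 0.37 (adjusted p = 0.0331), and Ccl8, a chemokine, at least 3.1-fold (adjusted p = 0.0383). The microglial list had no call in the comparison with the 25 other arrays. Drd2 gave 2.24 against the caudal side (adjusted p = 0.227) and Ppp1r1b 2.18 (adjusted p = 0.163).

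The last comparison was within the members, of the rostral member of each mouse (C10 and Co11) with the caudal member (C9 and Co10). Its error was the spread between the mice over 13 positions, which the study matched by correlation on these same arrays. Of 15496 genes tested, 48 were called (0.31%), with 6 higher in the rostral member (0.0387%) and 42 lower (0.271%). None of the 35 striatal projection neuron genes was called, and their median was 0.24. Without Co11 the count was 386 and without Co10 it was 24, each of which leaves 1 mouse at its position.

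Genes of the choroid plexus, the tissue that secretes cerebrospinal fluid, were higher in the caudal member than in the rostral one. Against the caudal neighbours the 4 members together had a median of -1.52 for this list, with 0 calls. Of 10 genes of that list 7 were lower in the rostral member, with a median of -2.82, beside 0.271% of all genes called lower. With the 4 member arrays alone, 0 genes were called in the comparison within the members. Ttr, the thyroxine carrier transthyretin, was at 1.20 on C9 and 2.31 on Co10, and at -1.64 on C10 and -1.98 on Co11. It differed by -3.57 ± 0.62 (adjusted p = 0.0305). Folr1, a folate receptor, was at 0.79 and 1.27 on the caudal member and at -1.74 and -2.22 on the rostral one, a difference of -3.00 ± 0.48 (adjusted p = 0.0215). Both genes fell from one 1 mm fraction to the next in both mice, as the plot of neighbouring structures shows.

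Kl, the anti-ageing hormone klotho, differed by -2.64 ± 0.24 (adjusted p = 0.000398), and Enpp2, the enzyme autotaxin, by -1.23 ± 0.14 (adjusted p = 0.00236). Aqp1, a water channel of the same epithelium, differed by -3.12 ± 0.58 (adjusted p = 0.0429), Sostdc1, a secreted antagonist of BMP and Wnt signals, by -2.30 ± 0.35 (adjusted p = 0.0156), and F5, coagulation factor V, by -3.02 ± 0.35 (adjusted p = 0.00262). Outside the list, Wfdc2, Krt18 and Prlr, the last encoding the prolactin receptor, differed by -3.12 ± 0.36 (adjusted p = 0.00262), -2.92 ± 0.43 (adjusted p = 0.0109) and -1.35 ± 0.21 (adjusted p = 0.0156). The summed choroid plexus level ran from 16.0 to 48.8 times the 75th percentile over the 4 members.

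Thalamic genes were called lower in the rostral member in 3 of 15 cases, beside 0.271% of all genes. Slc17a6, the vesicular glutamate transporter of thalamus and hypothalamus, differed by -1.22 ± 0.20 (adjusted p = 0.0246), Gbx2, a homeobox factor of thalamic neurons, by -1.34 ± 0.25 (adjusted p = 0.0452), and Tac2, the precursor of neurokinin B, by -0.997 ± 0.15 (adjusted p = 0.0156). In the interneuron list, Calb2, the calcium buffer calretinin, differed by -1.56 ± 0.29 (adjusted p = 0.0416).

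The rostral member was higher in few genes. Gnrh1, the gonadotropin-releasing hormone of preoptic and septal neurons, was at -3.68 and -3.37 on C9 and Co10 and at -1.87 and -1.52 on C10 and Co11, a difference of 1.82 ± 0.26 (adjusted p = 0.00802). Arrays farther rostral, such as C12 and Co14, were at a level near that of C10 and Co11. Orm3, Hoxb4 and Acnat2 were not well above background on either caudal member and were at least 5.42-fold (adjusted p = 0.0271), 2.65-fold (adjusted p = 0.0321) and 2.02-fold (adjusted p = 0.0485) higher on the rostral one.

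**Figure D5:**
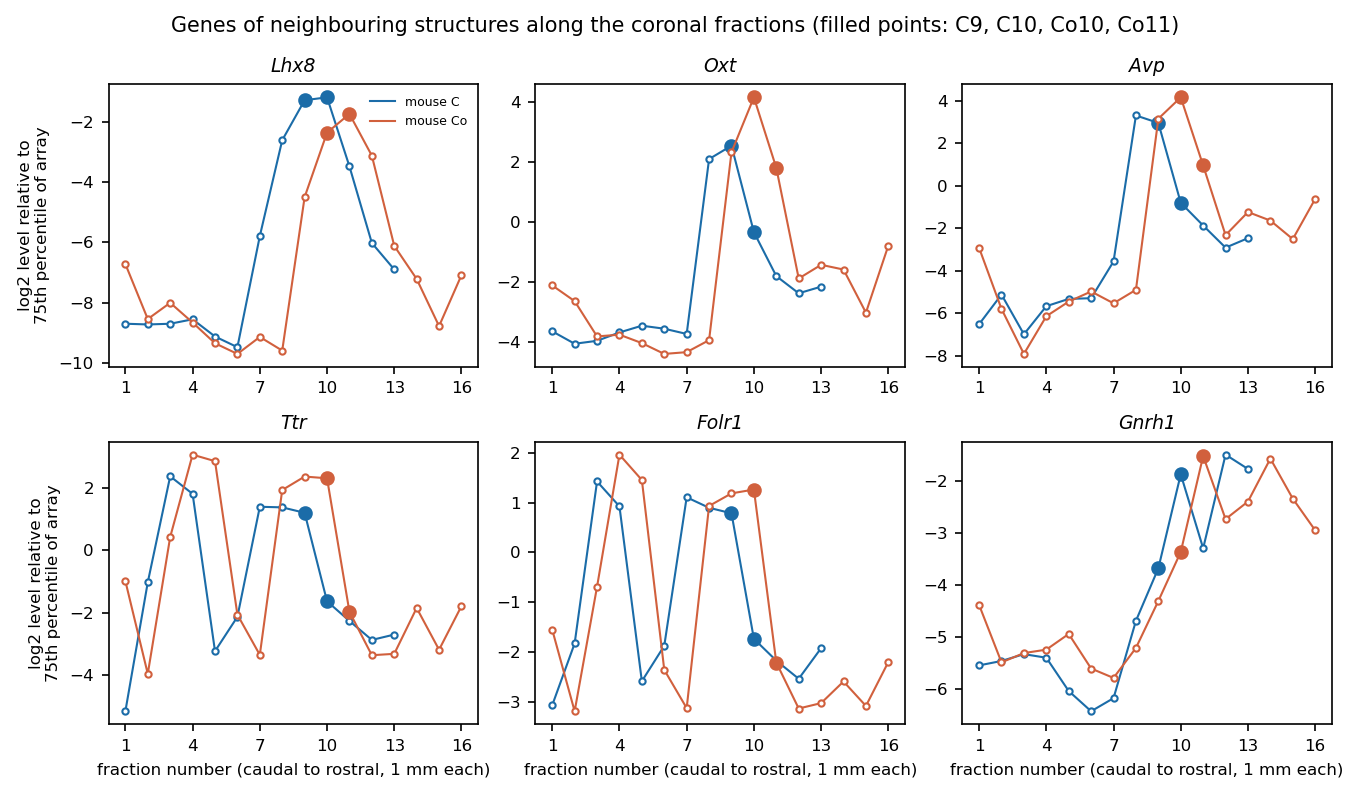
Levels of Lhx8, Oxt, Avp, Ttr, Folr1 and Gnrh1 (log2 relative to the 75th percentile of the array, vertical axis) along the coronal fractions of mouse C and mouse Co (horizontal axis, caudal to rostral), with the 4 members as filled points. Lhx8 peaks on a member in both mice, Ttr falls between the 2 members of each mouse (from 1.20 to -1.64 and from 2.31 to -1.98), and Gnrh1 rises between them.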

How the data were processed

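RNA of each fraction was labelled with Cy3 and hybridised to a single-colour Agilent whole mouse genome array, 1 array per fraction with no pooling. The deposited files hold spot intensity values that Agilent Feature Extraction 9.1 (per the submitters' notes) had background-subtracted; the authors deposited a normalized table as well, also read as intensity, which differed from the arrays by 1 constant per array. Here gProcessedSignal was taken to log2 after removal of control spots and spots flagged as outliers (2235 values missing), minus the 75th percentile of the array. Of 41174 probes, 22951 were named through RefSeq accessions (16358 genes), and 36573 were well above background on at least 1 of the 61 arrays. Each gene was read by its brightest probe on average.

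Differences were fitted with limma 3.58.1 in R 4.3.3 (lmFit, eBayes) with the mouse as block and Benjamini-Hochberg adjustment over all probes tested, called under 0.05. The fit was tested on simulated data. The rostral and caudal comparisons used 12 arrays, the comparison within the members 26 arrays at 13 positions. Where all arrays of the dimmer class were not well above background, the fold is a lower bound against the lowest signal well above background. Tables were made in Python 3.11.15 (pandas 2.3.3, numpy 2.4.6) and plots with matplotlib 3.10.9. Replicate numbers only name arrays and pair none, so the mouse was the block. Repeated spots of a probe on an array had a median SD of 0.06 (log2), and no spot used was saturated. Only 2 mice stand behind the coronal arrays, and p-values over fractions of a mouse measure spread between places as well as between animals.

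The members and the gene lists were chosen with earlier results of these data known. Named genes were, by rule, the 15 most raised called genes well above background on all members, the 10 most lowered, the 6 most changed each way in the other comparisons, and members of the lists; others named for illustration were picked after their values were seen. Alternatives were other scalings, background corrections, probe filters, blocks, thresholds and arrays left out. The comparison of the mice with each other was described with no test, and choosing its genes in mouse Co as well as in mouse C was added after the data were seen. A few genes that entered the fits and counts are not reported here by name.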

Additional observations from a re-analysis of the deposited data

Results flagged for a closer look

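Among 51 named genes looked at, 2 had 1 member array far from the other 3. For Ifi27l2b, Co11 (-3.75) lay apart from the others (-4.45 to -4.38), with a gap of 0.903 of the range of the group. For Clspn, Co11 (-4.31) lay apart from -5.16 to -5.14, with a gap of 0.977. The critical value is 0.829, and chance passes it in about 1 of 20 groups, so 2 of 51 is near that share.

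The difference between members and other arrays was not the same in both mice for 2 of 15493 genes (limma interaction of mouse and group, Benjamini-Hochberg adjusted; 298 at an unadjusted p under 0.05). For Trim14 the difference was -0.43 in mouse C and 1.26 in mouse Co, an interaction of 1.69 (adjusted p = 0.0353). For Ccdc185 it was 2.14 in mouse C and -0.31 in mouse Co, an interaction of -2.45 (adjusted p = 0.0448), with 1 of 4 members and 0 of 25 others well above background.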

How the results depend on the processing

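For the 4 members against the 25 others, 106 genes were called. Median scaling gave 90, normexp 118, the table normalized by the authors 89, all probes 103 and only probes well above background on all arrays 74. Without the mouse as a replicate block 81 were called. The slide as a random block gave 30 genes and as a fixed block 7; mouse C alone gave 21, mouse Co alone 2, the 13 positions 6469, the neighbouring arrays alone as others 1, and a threshold of 0.01 gave 41. Leaving out a member gave 37 to 57 and leaving out another array 82 to 160. All 106 genes kept their direction in each of these settings in which they were tested.

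Against the rostral neighbours (319), there were 121 calls without the replicate block, 0 with the slide as a fixed block (1460 at an unadjusted p under 0.05), 0 with 1 neighbour per side (2266 unadjusted) and 39 at 0.01; leaving out a member gave 64 to 235 and a neighbour 90 to 844. Against the caudal neighbours (106), normexp gave 253, probes well above background on all arrays 246, no replicate block 37, the slide as a random block 290 and as a fixed block 25, 1 neighbour per side 0 (2187 unadjusted) and 0.01 gave 8; leaving out a member gave 10 to 98 and a neighbour 4 to 71. Within the members (48), normexp gave 75, no replicate block 27, the 4 arrays alone 0 (787 unadjusted) and 0.01 gave 18; leaving out a member gave 24 to 386.

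Differences with no call reversed for Bdnf (-0.0382 with the slide as a fixed block, -0.21 against neighbours alone), Trpc4 (-0.0031 and -0.0507) and Zic1 (0.57 and 0.20), and a probe of the called gene Tnfrsf10b that was well above background on no coronal array gave 0.11, while its other probe gave -0.42. The cause was not tested in any of these cases.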

Other observations

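A few groups among the 98 higher genes were picked after their values were seen. Genes of cell division were among them: Plk1 (0.76, adjusted p = 0.0318), Kif20a (0.75, adjusted p = 0.00283), Ckap2l (0.64, adjusted p = 0.000934), Cdca2 (0.59, adjusted p = 0.0202), Vrk1 (0.71, adjusted p = 1.2e-05) and Pclaf (1.48, adjusted p = 0.0289), with differences and adjusted p-values from the same limma fit. Genes known from lymphocytes were also among them: Cd4 differed by 1.60 (adjusted p = 0.00054), Cd72 by 1.95 (adjusted p = 0.000853), Ccr6 by 2.66 (adjusted p = 5.4e-06) and Il2rb by 1.68 (adjusted p = 0.0239). The neuroblast and progenitor list, which includes the division genes Top2a, Cdk1 and Ccnb1, had 0 of 16 called. Over all genes 0.632% were called higher. Ankk1, which lies near Drd2 on chromosome 9, differed by 2.59 (adjusted p = 0.0177). Cyp2a5 differed by 3.05 and Cyp2a4 by 1.31; these 2 are near-identical copies, and their probes may read each other.

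When the slide was a fixed block, the 7 called genes were Cacng1, Ccr6, Cd72, Clspn, E230025N22Rik, Fbxw13 and Vrk1. Fbxw13 was not well above background on any of the 25 others, so its size is known only as a bound; the differences of the other 6 lay between 0.59 (Vrk1) and 2.64 (Clspn).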
